A study of Mus musculus with 4 samples.

Results

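The carbonic anhydrase genes Car2, Car3, Car4, Car5b, Car8, Car9, Car12 and Car13 were followed through single-nucleus libraries of mouse fat. They are 8 of the 16 genes of the family in a table of 32285 genes. They were chosen by name, because Car2 was far higher in adipocyte-like nuclei of 1 library than in the others, so the Car2 values of that comparison are a description and support nothing. Each of 4 groups of mice fed a high-fat diet gave 1 library, namely BeAT surgery and BeAT sham (beige adipose tissue) and BAT surgery and BAT sham (brown adipose tissue). The kind of operation, the strain, age and number of the mice, and whether tissue was pooled are not given in the labels. With 1 library a group there is no test between groups, and no difference below has a replicate check. Intervals are 95% intervals that cover counting error only.

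Carbonic anhydrases are zinc enzymes that convert carbon dioxide and water to bicarbonate and a proton. In fat cells bicarbonate is a substrate of the carboxylases that start fatty acid synthesis, and in the epididymis carbonic anhydrase supplies protons to the cells that acidify the lumen. Car2 (fast), Car3 (slow) and Car13 are cytosolic, Car5b is mitochondrial, Car4 is anchored to the outer face of the cell membrane, Car9 and Car12 span the membrane, and Car8 is a related protein without the enzyme activity.

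The libraries held 34038 kept nuclei, 5328 in BeAT surgery, 9760 in BeAT sham, 9159 in BAT surgery and 9791 in BAT sham, with a median of 2654, 3049, 5173 and 3970 unique molecular identifiers (UMIs, each a counted RNA molecule) a nucleus in that order. Between 36 and 73 barcodes were shared by any pair of libraries, at most 0.706% of the smaller library. The tissue labels did not match the content in several ways. Ucp1, the defining gene of brown and beige fat cells, had 0, 3, 0 and 2 UMIs in the adipocyte-like nuclei of the 4 libraries in the same order, and 62.0% of nuclei in the library labelled BAT surgery were epithelial-like, with epididymal genes. Levels are given in CPM, the UMIs of a gene per 1000000 UMIs of the class in that library. Hoxa9, a posterior homeobox gene, had 0.554 CPM in BAT surgery adipocyte-like nuclei and 83.3 CPM in those of BAT sham. In BeAT surgery 36.2% of nuclei were B cell-like and 30.6% T or NK-like. The part of these differences in the results below was not tested.

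Adipocyte-like nuclei, named from 11 of 11 adipocyte markers in each of their clusters, numbered 484 in BeAT surgery, 4806 in BeAT sham, 571 in BAT surgery and 4063 in BAT sham. They came from different clusters. Cluster 1 held 86.2% of them in BeAT surgery, 95.1% in BeAT sham and 85.7% in BAT sham, and cluster 11 held 13.4%, 4.87% and 14.3%. In BAT surgery 91.1% lay in cluster 20, which held at most 2 nuclei of any other library.

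Over all kept nuclei Car3 had 1082105 UMIs, Car5b 13014, Car4 2171, Car12 1518, Car13 1373, Car2 1053, Car8 702 and Car9 41. These are counts, with no correction for gene length. Each of the 7 genes other than Car9 had its own pattern over the classes of nuclei. In the heatmap of levels, Car3 and Car5b were highest in adipocyte-like nuclei, Car4 in endothelial-like nuclei, Car8 in progenitor-like nuclei, Car12 in epithelial-like nuclei and Car2 in Schwann-like nuclei of BAT sham. Car13 was spread over adipocyte-like, progenitor-like and mesothelial-like nuclei.

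**Figure D1:**
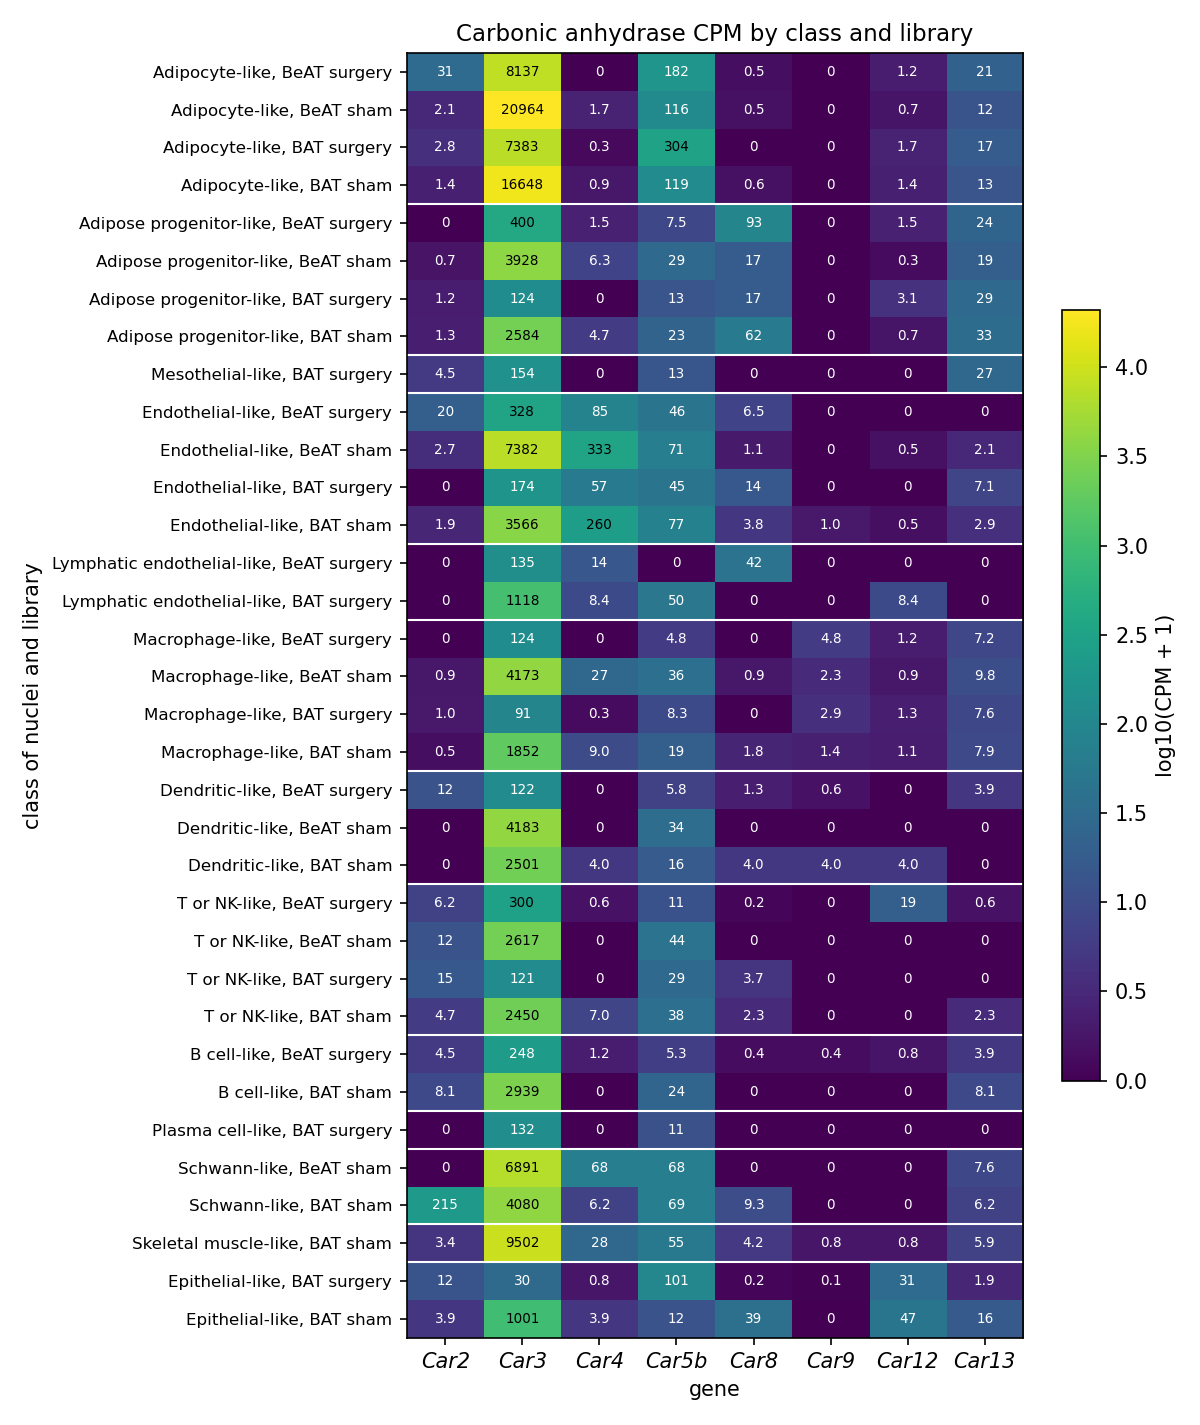
Level in CPM for the 8 genes (columns) in each class and library of at least 50 nuclei (rows), with colour on a log10(CPM + 1) scale and the level printed in each cell. Car3 is present in every row, at 20963.5 in BeAT sham adipocyte-like nuclei and 30.2 in BAT surgery epithelial-like nuclei, while Car4, Car8 and Car12 have few rows above 40.

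Car2, Car3 and Car13 lie together on mouse chromosome 3 with Car1, a cytosolic enzyme best known from red blood cells (GRCm38, GENCODE M21). Car13 spans chr3:14641727-14663002 on the + strand, Car1 chr3:14766216-14808368 on the − strand, Car3 chr3:14863512-14872523 and Car2 chr3:14886273-14900770, both on the + strand, 259 kb from end to end. The others lie apart, Car4 at chr11:84957786-84966044 (+), Car5b at chrX:163976822-164027997 (−), Car8 at chr4:8143362-8239041 (−), Car9 at chr4:43506966-43513729 (+) and Car12 at chr9:66713686-66766845 (+). Car8 overlaps the pseudogene Gm11799 on its own strand and Car9 an antisense gene, Gm12454, and the strand setting of the counting is not given in the sources used here, so reads of these overlaps cannot be told apart.

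In adipocyte-like nuclei Car2 was higher in BeAT surgery than in every other library. There were 133 Car2 UMIs in BeAT surgery, 42 in BeAT sham, 10 in BAT surgery and 34 in BAT sham, or 31.3, 2.06, 2.77 and 1.35 CPM. Car2 was 15.2 times as high in BeAT surgery as in BeAT sham (10.7 to 22.0), the rank of 7 from the highest among 12462 genes. It was 11.3 times as high in BeAT surgery as in BAT surgery (5.95 to 24.1). The ratio of BAT surgery to BAT sham, 2.05, had an interval from 0.903 to 4.24 on 44 UMIs, and that of BeAT sham to BAT sham, 1.52, one from 0.946 to 2.47, so neither excluded equal levels.

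The Car2 excess sat in few nuclei. In BeAT surgery 30 of 484 adipocyte-like nuclei held a Car2 UMI (6.20%, 4.22 to 8.73), 22 of these held at least 2, 13 held at least 5 and the highest held 12. The 10 highest nuclei held 63.2% of the Car2 UMIs. In BeAT sham 40 of 4806 nuclei held a Car2 UMI (0.832%), 38 of them a lone one, and no nucleus had more than 2. BAT surgery had 5 such nuclei of 571 (0.876%), 1 of them with 5 UMIs, and BAT sham 33 of 4063 (0.812%), 32 of them with a lone UMI.

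The share of nuclei with Car2 depends on depth, and the median adipocyte-like nucleus held 8821 UMIs in BeAT surgery, 4134 in BeAT sham, 6313 in BAT surgery and 5866 in BAT sham. With each nucleus thinned to 1000 UMIs, 7 of 474 BeAT surgery nuclei (1.48%) and 11 of 4604 BeAT sham nuclei (0.239%) kept a Car2 UMI, against 0 of 533 in BAT surgery and 3 of 3953 in BAT sham. Within the BeAT surgery library, Car2 was at 0 in 166 progenitor-like nuclei (median 3907 UMIs) and in 226 macrophage-like nuclei (median 3242.5), and 0.932% of 1931 B cell-like nuclei held it (median 2180). In dendritic-like nuclei of that library 3.86% of 363 held it (median 4022), more than the 3.36% of adipocyte-like cluster 1. In the sham libraries the share was 0.719% in endothelial-like nuclei of BeAT sham (median 1951), and 0.417% in progenitor-like (median 3787) and 20.2% in Schwann-like nuclei (median 2575) of BAT sham. These depths differ from those of adipocyte-like nuclei, and a background share for Car2 was not measured.

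Clusters 1 and 11 both showed the difference. Cluster 11 of BeAT surgery held 83 Car2 UMIs in 16 of 65 nuclei (24.6%, 113 CPM), against 2 UMIs in 234 nuclei of BeAT sham (1.19 CPM). Cluster 1 of BeAT surgery held 50 in 14 of 417 nuclei (3.36%, 14.3 CPM), against 40 UMIs in 4572 nuclei of BeAT sham (2.14 CPM). The ratio was 95.2 in cluster 11 (25.5 to 799) and 6.68 in cluster 1 (4.32 to 10.4). Because UMIs gather in a few nuclei, these intervals are too narrow, and by share of nuclei with a UMI the overall ratio was 7.45 (4.48 to 12.3).

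The Car2-bearing nuclei of BeAT surgery also carried immediate early genes, transcription factors and regulators that switch on within minutes of a stimulus or of tissue handling. The list of 15 such genes was chosen after their values had been seen. They summed to 8032 CPM in the 30 nuclei with Car2 and to 1077 in the 454 without. Junb had 856 CPM in nuclei with Car2 and 70.5 in those without, Egr1 1216 and 109.8, Jun 1512 and 204, and Fos 705 and 149. Since both the nuclei and the genes were picked on these values, they are a description. The sum was 6614 against 722 in cluster 1 and 9108 against 3288 in cluster 11. The ratios of single genes were smaller in cluster 11, at 3.64 for Junb and 1.70 for Fos, against 18.3 and 5.72 in cluster 1.

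Those 30 nuclei came from clusters named by adipocyte markers, so the presence of these markers in them was set in advance. Adipocyte markers summed to 31919 CPM in nuclei with Car2 and 42098 in those without, B cell markers to 66.5 and 116, T or NK markers to 33.3 and 36.5, and macrophage markers to 30.2 and 16.6, while epithelial markers had 0 and 3 UMIs. Their median depth was 10647.5 UMIs, against 8753. Car3 had 13995 CPM in them and 7643 in the others, Car5b 148 and 185, and Car13 12.1 (4 UMIs) and 21.4. Lep, the leptin gene, had 405 and 208, and Adipoq, the adiponectin gene, 236 and 298. Within cluster 11 adipocyte markers summed to 28362 CPM in nuclei with Car2 and 44109 in those without. Within cluster 1 they summed to 36603 and 41833.

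Car2 was then counted by bins of immediate early level. The list was chosen after its values had been seen, so this count too is a description. Of the BeAT surgery adipocyte-like nuclei, 70 had at least 3000 immediate early CPM, and these 70 held 126 of the 133 Car2 UMIs, with 34.3% of them positive (23.3 to 46.6). In BeAT sham 830 nuclei reached 3000 CPM, and they held 11 Car2 UMIs, with 1.20% positive (0.579 to 2.20). In BAT sham 161 nuclei reached it and 2 held a Car2 UMI, and in BAT surgery 3 reached it and 0 held one. The highest bin has no upper limit, and levels within it were not matched between libraries. Below 1000 immediate early CPM, the share with Car2 was 1.18% in BeAT surgery (0.322 to 2.99), 0.718% in BeAT sham, 0.921% in BAT surgery and 0.776% in BAT sham. Over all adipocyte-like nuclei the immediate early sum was 1618 CPM in BeAT surgery, 1473 in BeAT sham, 172 in BAT surgery and 678 in BAT sham, so BeAT surgery and BeAT sham lay close in this sum.

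**Figure D2:**
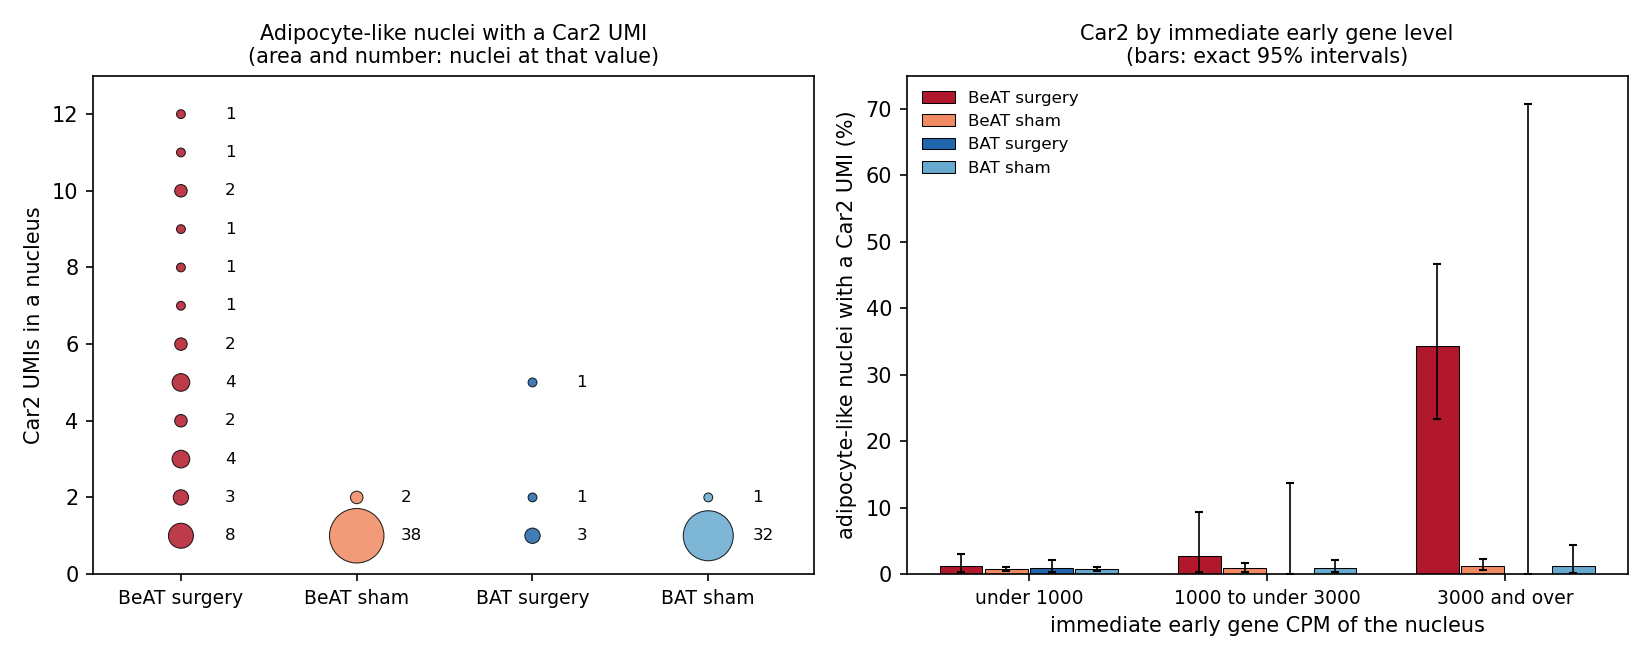
Left, Car2 UMIs in a nucleus (y axis) for adipocyte-like nuclei with at least 1, by library, where point area and the printed number give the nuclei at each value. Right, the share of adipocyte-like nuclei with a Car2 UMI in 3 bins of immediate early gene level, with exact 95% intervals, at 34.3% in BeAT surgery and 1.20% in BeAT sham in the highest bin, where BAT surgery has 3 nuclei.

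The remaining genes were read in the same nuclei. A gene was called where it was at least 2-fold apart, its interval excluded 1 and both libraries together held at least 50 UMIs. Of the 8 genes, 4 held 50 UMIs or more in the BeAT pair, and Car2, on which the choice rested, was called higher and Car3 lower in BeAT surgery than in BeAT sham, where 4.36% of 12473 genes were called higher and 15.2% lower. In the BAT pair 3 genes held enough, and Car5b was called higher and Car3 lower in BAT surgery than in BAT sham, where 5.34% of 13026 genes were called higher and 12.0% lower. Between BeAT surgery and BAT surgery Car2 alone of 4 genes was called (higher, against 3.53% of 9554 genes called higher and 4.57% lower), and between BeAT sham and BAT sham 0 of 5 were (1.06% of 13924 genes higher and 1.78% lower). These counts are too small to set the genes apart from the background.

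Car3, the abundant slow enzyme of fat cells and muscle, was lower in both surgery libraries. It had 8137 CPM in BeAT surgery and 20963.5 in BeAT sham, 2.58-fold lower (2.55 to 2.60). It had 7383 in BAT surgery and 16648 in BAT sham, 2.25-fold lower (2.23 to 2.28). At least 98.2% of adipocyte-like nuclei held Car3 in each library. Surgery libraries had fewer UMIs of short genes, and for genes of the span of Car3 (9.01 kb) the median log2 ratio was −0.53 in the BeAT pair and −0.31 in the BAT pair. With this median taken off, the ratios were 0.562 and 0.550, and neither was called.

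Adiponectin (Adipoq), a secreted product of fat cells, was read beside Car3. Adipoq had 293.5 CPM in BeAT surgery and 816.0 in BeAT sham, and 323.7 in BAT surgery and 575.3 in BAT sham. There were 27.7 Car3 UMIs for each Adipoq UMI in BeAT surgery (26.2 to 29.4) and 25.7 in BeAT sham (25.3 to 26.1), and 22.8 in BAT surgery (21.5 to 24.2) and 28.9 in BAT sham (28.5 to 29.4). The 4 adipocyte-like ratios lay between 22.8 and 28.9, while the Car3 level itself was over 2-fold apart within each pair. The intervals of the ratio overlapped in neither surgery pair. Adipoq is 1 of the 11 adipocyte markers, and their sum was higher in both surgery libraries. It was 41304 CPM in BeAT surgery and 23846 in BeAT sham, and 41786 in BAT surgery and 26520 in BAT sham.

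Car3 was also counted in every other class, including immune classes not known to make it. In named classes other than adipocyte-like, 75.9% to 98.4% of nuclei held a Car3 UMI in the sham libraries and 13.7% to 41.7% in the surgery libraries. Among unnamed nuclei, 120 of 282 held Car3 in BeAT surgery, 2165 of 2189 in BeAT sham, 584 of 890 in BAT surgery and 1013 of 1062 in BAT sham. In progenitor-like nuclei it reached 400.0 CPM in BeAT surgery against 3928 in BeAT sham, and 124 in BAT surgery against 2584 in BAT sham. The Car3 to Adipoq ratio was lower there than in adipocyte-like nuclei, for example 6.31 in BeAT surgery and 10.6 in BeAT sham endothelial-like nuclei. Skeletal muscle-like nuclei of BAT sham, from a tissue known to make Car3, had a ratio of 17.0 (15.7 to 18.4), above the 13.5 (12.8 to 14.3) of progenitor-like nuclei in that library. The ratio of 33.3 in lymphatic endothelial-like nuclei of BAT surgery rested on 4 Adipoq UMIs and on a nucleus with 115 of the 133 Car3 UMIs.

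**Figure D3:**
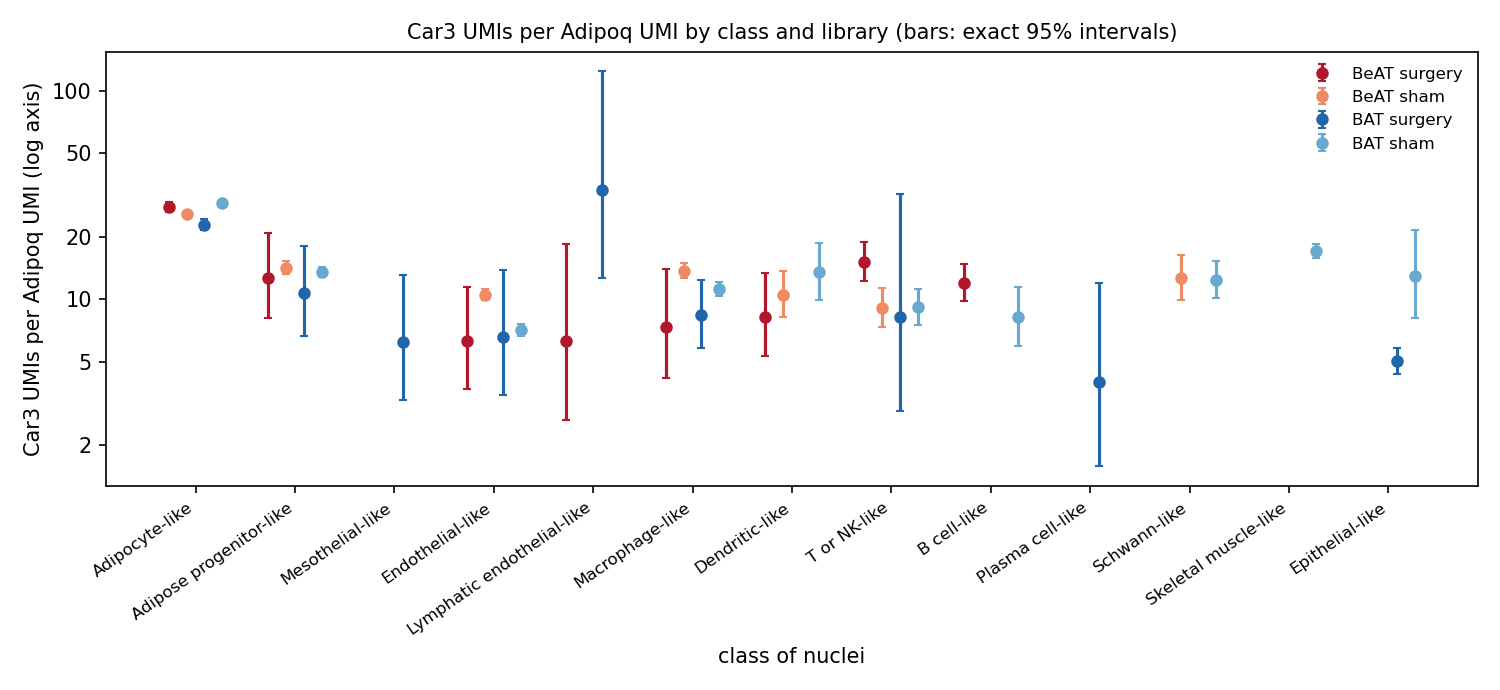
Car3 UMIs for each Adipoq UMI (log axis) by class and library, with exact 95% intervals for counting error. Adipocyte-like nuclei lie between 22.8 and 28.9 in all 4 libraries, and other classes lie between 4.0 and 17.0, except lymphatic endothelial-like nuclei of BAT surgery at 33.3.

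Car5b, which makes bicarbonate inside mitochondria, was called higher in BAT surgery and not in BeAT surgery. It had 182 CPM in BeAT surgery and 116 in BeAT sham, 1.57 times as high (1.44 to 1.70), which is under the 2-fold rule. It had 304 in BAT surgery and 119 in BAT sham, 2.56 times as high (2.39 to 2.75). In the BAT pair the nuclei came from different clusters, and within cluster 1 the ratio was 1.69 (1.13 to 2.43) on 29 UMIs in 49 nuclei of BAT surgery. With a gate on marker genes in place of clusters it was 1.61, and the call was lost. Epididymal principal-cell genes summed to 1048 CPM in BAT surgery adipocyte-like nuclei and to 6.01 to 8.24 in the other libraries, with all 11 detected, and Car5b stood at 101 CPM in the epithelial-like nuclei of that library. The part of epididymal RNA in the adipocyte-like Car5b level was not tested.

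Car13 had 20.7 CPM in BeAT surgery and 12.5 in BeAT sham, 1.66 times as high (1.29 to 2.13), and 16.9 in BAT surgery and 12.5 in BAT sham, 1.35 times (1.01 to 1.78). Neither passed the 2-fold rule. With the gate on marker genes the BAT ratio turned to 0.631 (0.391 to 0.992). Car13 also had 24.0 and 19.3 in progenitor-like nuclei of BeAT surgery and BeAT sham, and 28.7 and 32.6 in those of BAT surgery and BAT sham, with intervals that overlapped within each pair.

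The remaining genes were close to absent from adipocyte-like nuclei. Car4 had 0 UMIs in BeAT surgery and 34 in BeAT sham, and 1 in BAT surgery and 22 in BAT sham. Car12 had 5 and 15, and 6 and 34, and Car8 2 and 11, and 0 and 14, in the same order. Car9 had 0 in all 4, which allows up to 0.706 CPM in BeAT surgery, 0.147 in BeAT sham and 0.119 in BAT sham at 3 counts.

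Of the family members outside the chosen 8, 3 held enough UMIs in each surgery pair. Car1 and Car11, a related protein without enzyme activity, were called lower in both surgery libraries. Of all genes, 15.2% were called lower in the BeAT pair and 12.0% in the BAT pair. Car1 had 7 UMIs in BeAT surgery and 165 in BeAT sham, 4.91-fold lower (2.33 to 12.4), and 4 in BAT surgery and 232 in BAT sham, 8.33-fold lower (3.21 to 30.8). Car11 had 16 and 297 UMIs in the BeAT pair, 3.87-fold lower (2.34 to 6.86), and 10 and 343 in the BAT pair, 4.93-fold lower (2.65 to 10.4). Car11 spans 4.84 kb, and with the span trend taken off its ratios were 0.450 and 0.282. Erythroid markers summed to 20.9 CPM in BeAT surgery and 263 in BeAT sham adipocyte-like nuclei, and to 77.3 in BAT surgery and 113 in BAT sham, and their part in the Car1 values was not tested. Of the neighbours of Car2 on chromosome 3, Car13 had a ratio of 1.66 in the BeAT pair, Car3 one of 0.388 and Car1 one of 0.204. Car7, a cytosolic enzyme, had 8 and 51 UMIs in the BeAT pair and 7 and 89 in the BAT pair, and neither ratio excluded 1.

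**Figure D4:**
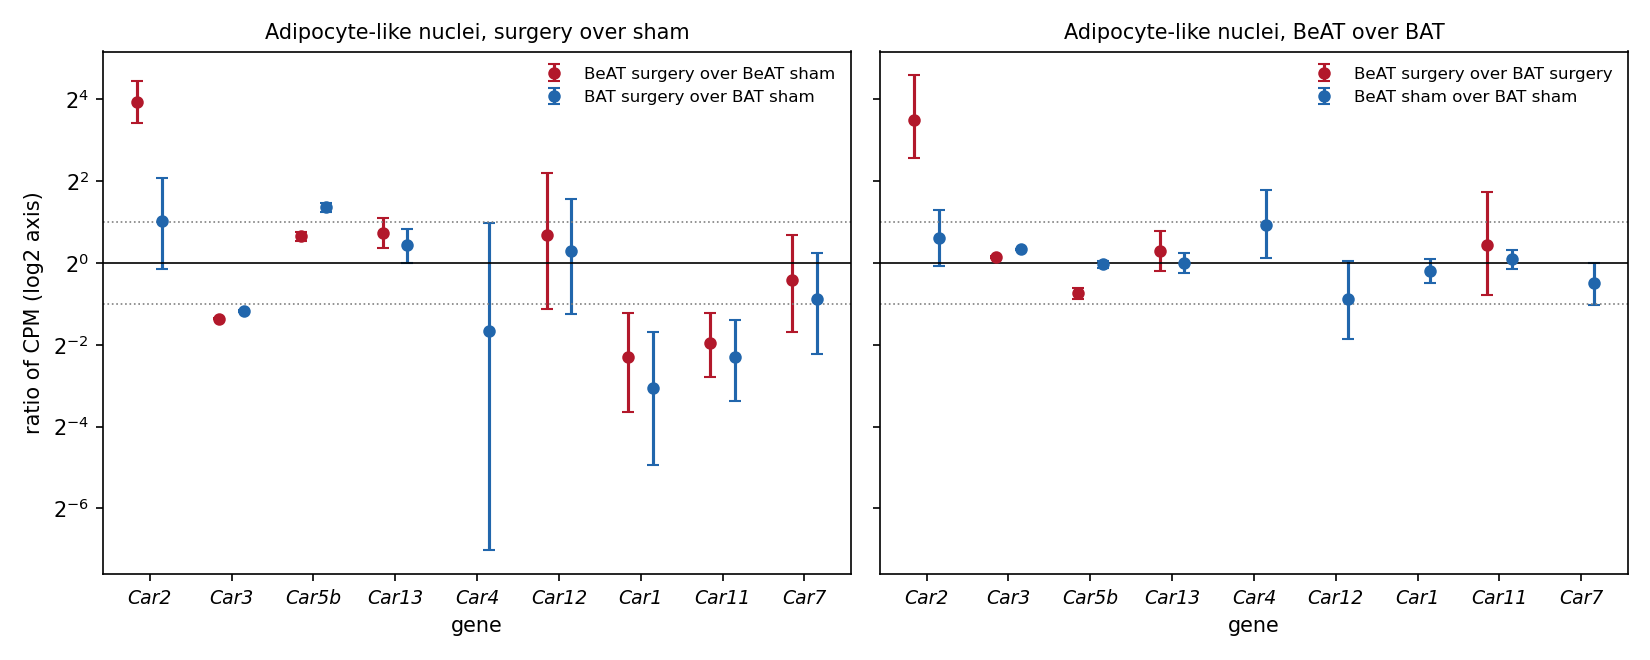
Ratio of CPM in adipocyte-like nuclei on a log2 axis, surgery over sham (left) and BeAT over BAT (right), with exact 95% intervals; dotted lines mark 2-fold, and genes under 20 UMIs or at 0 in a library are left out. Car2 stands at 15.2 and 11.3 in the pairs with BeAT surgery on top, Car3 at 0.388 and 0.443 in the surgery pairs and Car5b at 1.57 and 2.56.

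Lists of genes around the enzyme reaction were counted in the same nuclei. Of 9 carboxylases that use bicarbonate, 8 held enough UMIs. In the BeAT pair 4 were called higher (4.36% of all genes were) and 0 lower, with a median log2 ratio of 0.96 against −0.09 over all genes. In the BAT pair 5 were higher (5.34% of all genes were) and 0 lower, with a median of 1.21 against −0.07. Acaca, the cytosolic acetyl-CoA carboxylase, had 7458 CPM in BeAT surgery and 1553 in BeAT sham, 4.80 times as high (4.73 to 4.88), and 6983 in BAT surgery and 1485 in BAT sham. Pcx, the mitochondrial pyruvate carboxylase, had 1384 and 569 in the BeAT pair and 1602 and 700.3 in the BAT pair. Acacb and Pcca were called higher in both pairs, and Cad, named for its call, in the BAT pair. Genes of the longest spans had a median log2 ratio of 0.50 in the BeAT pair and 0.19 in the BAT pair.

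Of 19 bicarbonate and proton transport genes 9 held enough UMIs, and 2 were called higher and 1 lower in each surgery pair, beside 4.36% of all genes higher and 15.2% lower in the BeAT pair and 5.34% and 12.0% in the BAT pair. The monocarboxylate and proton carrier Slc16a1 had 26.4 CPM in BeAT surgery and 10.5 in BeAT sham, and the proton channel Hvcn1 11.8 and 4.32. The water channel Aqp1 was lower, at 0.706 and 3.29. Among those with the most UMIs, Slc4a7 (96.3 CPM in BeAT surgery and 97.9 in BeAT sham) and Slc4a2 (19.5 and 19.6) were near even, and the sodium bicarbonate carrier Slc4a4 had 118.6 and 67.9. The 3 called genes are named because they were called. The median log2 ratio of the list was −0.0028 in the BeAT pair and 0.26 in the BAT pair.

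Of 15 hypoxia response genes, which include usual companions of Car9, 12 held enough. In the BeAT pair 1 was called higher and 1 lower, and in the BAT pair 1 higher and 2 lower, beside the same shares of all genes. Bnip3, a mitochondrial protein, was higher in both surgery libraries (175 CPM in BeAT surgery and 78.0 in BeAT sham, and 245 in BAT surgery and 85.1 in BAT sham). Ndrg1, named because it was called, was lower in both. Hif1a (117 and 132 in the BeAT pair, 143 and 147 in the BAT pair) and Ldha (111 and 143, 85.1 and 112) were not called. Vegfa, a vessel growth factor, was lower in BAT surgery at 246 against 501 in BAT sham. The list's median log2 ratio was −0.10 and −0.06, close to that of all genes.

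Car9 had 41 UMIs in all kept nuclei, and macrophage-like nuclei held 24 of them, 4 in BeAT surgery (4.81 CPM), 5 in BeAT sham (2.34), 9 in BAT surgery (2.86) and 6 in BAT sham (1.36). Car9 is a textbook target of hypoxia-inducible factors, whose binding core is ACGTG or GCGTG, of which only ACGTG was searched. Car5b is the member whose adipocyte-like level was called higher in BAT surgery. The 250 bases before the RefSeq start (GRCm38.p6, 5′ to 3′ on the gene's strand) are shown for these genes, with matches to ACGTG, to the GC box GGGCGG and to the nuclear receptor core site AGGTCA, on either strand, in capitals. The 3 motifs share no letters at any match.
Car9, chr4:43506776-43507025, + strand: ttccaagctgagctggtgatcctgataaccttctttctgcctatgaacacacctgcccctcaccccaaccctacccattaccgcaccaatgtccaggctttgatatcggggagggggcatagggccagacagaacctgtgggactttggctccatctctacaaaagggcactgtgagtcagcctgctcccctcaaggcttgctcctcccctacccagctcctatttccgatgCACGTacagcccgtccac
Car5b, chrX:164028011-164028260, − strand: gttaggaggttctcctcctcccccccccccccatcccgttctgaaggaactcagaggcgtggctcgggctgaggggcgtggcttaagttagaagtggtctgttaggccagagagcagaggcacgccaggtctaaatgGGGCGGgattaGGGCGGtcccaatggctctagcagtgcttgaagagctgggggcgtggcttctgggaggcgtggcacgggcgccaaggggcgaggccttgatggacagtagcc

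The Car9 window held ACGTG on the opposite strand, starting 18 bases before the RefSeq start, and ACGTG was found in 16.6% of 32851 promoters. This match lies inside the Car9 span given above, since the GENCODE start comes earlier than the RefSeq one. The Car5b window held GGGCGG at 113 and 102 bases before the start and neither other motif, and GGGCGG was found in 32.7% of promoters and AGGTCA in 14.0%. The Car12 window held 1 GGGCGG match, 35 bases before the start, and the Car4 window none of the 3. These are matches of letters and say nothing of binding.

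Car4, which faces the blood on capillary endothelium, was lower in endothelial-like nuclei of both surgery libraries. It had 84.5 CPM in BeAT surgery (115 nuclei, 26 UMIs) and 333 in BeAT sham (695 nuclei, 620 UMIs), 3.94-fold lower (2.66 to 6.07). It had 57.1 in BAT surgery (152 nuclei, 24 UMIs) and 260 in BAT sham (779 nuclei, 542 UMIs), 4.55-fold lower (3.03 to 7.17). In these classes 23.1% of 6834 genes in the BeAT pair and 16.9% of 7304 in the BAT pair were called lower. Within cluster 8, the main cluster of the class, Car4 had 152 in BeAT surgery and 413 in BeAT sham, 2.71-fold lower (1.83 to 4.18), and 113 in BAT surgery and 353 in BAT sham, 3.14-fold lower (2.05 to 5.05). With the span trend taken off, the ratios over the class were 0.461 and 0.342.

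The share of endothelial-like nuclei with a Car4 UMI was 18.3% in BeAT surgery and 42.9% in BeAT sham, and 12.5% in BAT surgery and 32.6% in BAT sham, at median depths of 2252, 1951, 2463 and 2267 UMIs. In progenitor-like nuclei, which are not known for Car4, it was 1.66% in BeAT sham and 1.73% in BAT sham. An unnamed cluster led by the capillary genes Gpihbp1 and Rbp7, together with globin genes, had 58.7 Car4 CPM in BeAT surgery (46 nuclei), 108 in BeAT sham and 84.9 in BAT sham. Between the sham libraries the endothelial-like level was 1.28 times as high in BeAT sham as in BAT sham (1.14 to 1.44), under the 2-fold rule.

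Car8 was highest in progenitor-like nuclei, and its levels went opposite ways in the surgery pairs. In progenitor-like nuclei it had 92.9 CPM in BeAT surgery and 17.3 in BeAT sham, 5.36 times as high (3.65 to 7.91), with 62 UMIs in 166 nuclei and 52 in 964. In the BAT pair the direction was the opposite, with 17.1 in BAT surgery and 62.2 in BAT sham, 3.63-fold lower (2.48 to 5.53). Of genes tested in this class, 5.88% of 8673 were called higher in the BeAT pair and 12.0% of 11076 lower in the BAT pair. Car8 was also lower in BeAT sham than in BAT sham, by 3.59-fold (2.69 to 4.89), where 2.09% of 11359 genes were called lower.

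Most of the Car8 UMIs came from cluster 9, progenitor-like nuclei with Pi16 and Opcml, so the class level also moves with how many nuclei this cluster gives. Cluster 9 held 56 of the 62 Car8 UMIs in 71 of the 166 BeAT surgery nuclei, 45 of 52 in 209 of 964 BeAT sham nuclei and 365 of 424 in 658 of 1677 BAT sham nuclei. In BAT surgery 417 of 438 progenitor-like nuclei lay in cluster 17 instead, a cluster with 146 nuclei in BAT sham. Within cluster 17 Car8 had 15.1 CPM in BAT surgery (24 UMIs) and 44.4 in BAT sham (25 UMIs), 2.94-fold lower (1.61 to 5.38). Within cluster 9 Car8 had 185 CPM in BeAT surgery and 63.9 in BeAT sham, 2.90 times as high (1.92 to 4.39), and 135 in BAT sham. Lymphatic endothelial-like nuclei of BeAT surgery had 42.5 (12 UMIs in 76 nuclei).

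Car12 was called higher in T or NK-like nuclei of BeAT surgery, with 91 UMIs in 1631 nuclei (19.4 CPM, 3.99% of nuclei). There were 0 UMIs in 207 BeAT sham nuclei and 0 in 144 nuclei of BAT surgery. With 3 counts in place of 0 in BeAT sham, Car12 would be 2.21-fold higher in BeAT surgery. That value is not the lower limit of an interval. In this class 6.94% of 8901 genes were called higher in the BeAT pair. Cluster 12 held 61 of the 91 UMIs in 818 nuclei of BeAT surgery (25.5 CPM) and had 31 nuclei in BeAT sham, where 0 UMIs allow up to 61.9 CPM. The make-up of the class thus differed, and within that cluster no difference could be seen at this depth. In B cell-like nuclei of the same library Car12 stood at 0.784 CPM.

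Car2 outside the adipocyte-like class was highest in Schwann-like nuclei of BAT sham, with 69 UMIs in 89 nuclei (215 CPM, 167 to 272). There 18 nuclei held Car2, the highest with 18 UMIs, and the 10 highest held 85.5%. In 62 Schwann-like nuclei of BeAT sham Car2 was at 0. With 3 counts in place of 0 the BeAT sham level would be 9.44-fold lower, which is not the limit of an interval. The median depth was 1432 UMIs in BeAT sham and 2575 in BAT sham. Of 1951 genes tested between these libraries in this class, 23.6% were called lower. An unnamed cluster with Rgs5, Pdgfrb and Myh11 had 61.6 in BAT surgery (8 UMIs), 14.8 in BeAT sham and 48.7 in BAT sham.

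The library labelled BAT surgery allowed the genes to be read over epididymal-type epithelium, with 5675 epithelial-like nuclei, nearly all in 7 clusters. Cluster 34 (131 nuclei) was clear- or narrow-like, with 6 of 8 markers of the acid-secreting cells of the epididymis. Clusters 6, 7, 10 and 14 were like principal cells, the main absorptive and secretory cells. They had 4, 6, 3 and 8 of 11 principal-cell markers in that order. Cluster 10 also had 2 of 8 clear- or narrow-cell markers, and cluster 7 had 1 of these and 1 of 4 basal markers. Cluster 26 was basal-like with 4 of 4 markers. Cluster 21 (506 nuclei) stayed without a name, and its leading genes included Dcdc2a, Lrp2 and Slc9a3.

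Car2 was highest in cluster 34, at 94.6 CPM (77.3 to 114) and in 40.5% of nuclei, next in cluster 21 at 66.7 (55.5 to 79.5), and next in cluster 7 at 18.3 (15.7 to 21.3). The intervals of clusters 34 and 21 overlapped. The other 4 clusters lay between 0.982 and 6.60. The proton pump subunits Atp6v0d2 (741 CPM) and Atp6v1g3 (709) and the transcription factor Foxi1 (117) were among the markers that named cluster 34. Their presence there was thus set in advance, as was that of Atp6v0a4. Cluster 34 also held the chloride and bicarbonate exchanger Slc26a3 (1040), which was not among those markers. Cluster 21 held the sodium bicarbonate carrier Slc4a4 (868, against 14.4 in cluster 34), the sodium and proton exchanger Slc9a3 (301, against 0) and Aqp1 (148, against 2.70), with Atp6v1g3 and Atp6v1b1 at 0. Both clusters held the pump subunit Atp6v0a4 (374 in cluster 34 and 414 in cluster 21), and Slc26a3 stood at 225 in cluster 21. Clear- or narrow-cell markers summed to 15.2 CPM in adipocyte-like nuclei of this library.

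Car12 followed another order, with 157 CPM in basal-like cluster 26 (134 to 182), 61.3 in cluster 10, 40.6 in cluster 6 and 25.2 in cluster 34, and 2.15 to 9.39 in the other 3. Car5b was present in all 7, between 44.7 in cluster 21 and 159 in cluster 7. Car7 was highest in cluster 10, at 71.4, and in cluster 14, at 43.8. Car4, Car8 and Car9 were at most 2.83 in any of them, and Car3 lay between 14.4 and 60.8. Of the 58 epithelial-like nuclei of BAT sham 56 formed a separate cluster led by Ptn, Wfdc2 and Csn3, with 12 Car12 UMIs (48.1 CPM) and 10 Car8 UMIs (40.0).

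**Figure D5:**
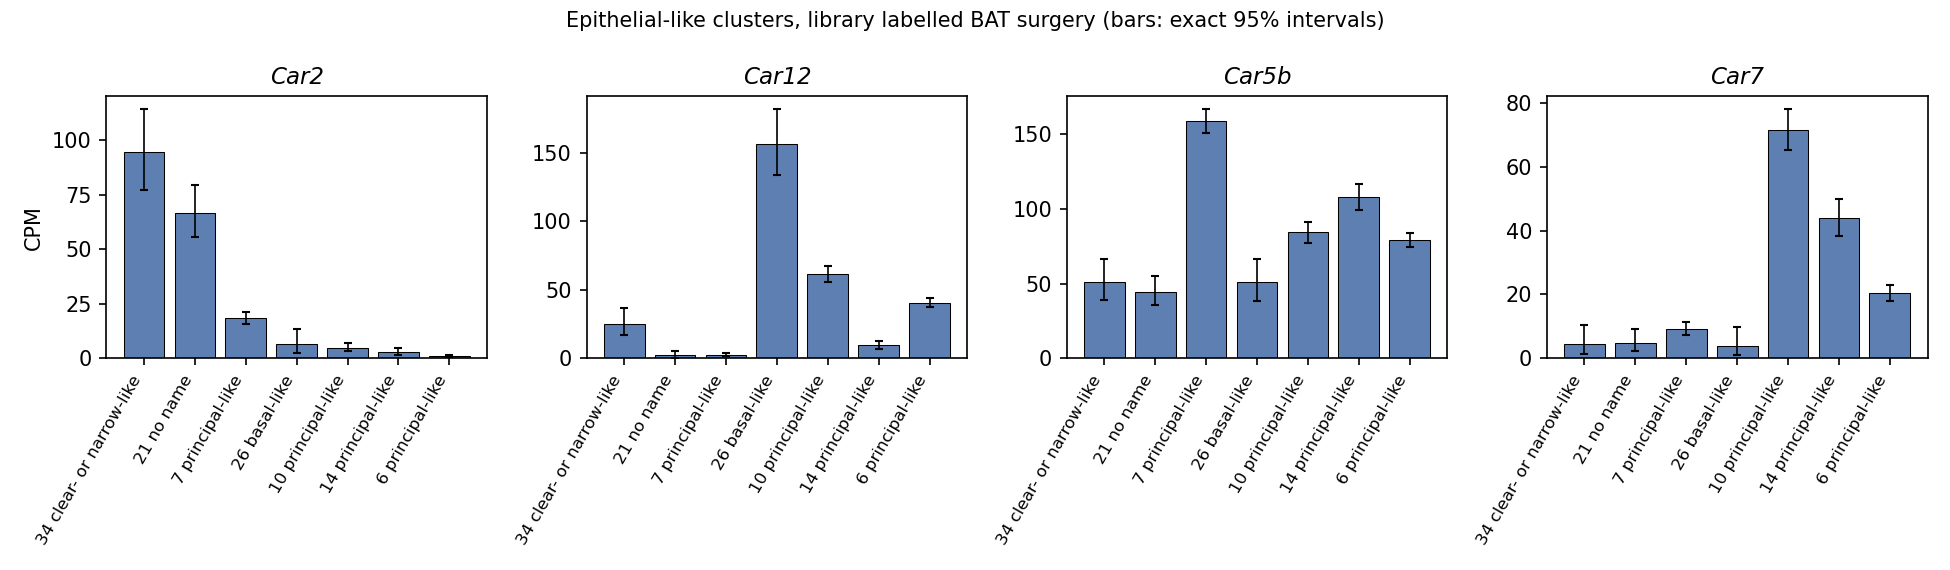
CPM of Car2, Car12, Car5b and Car7 in the 7 epithelial-like clusters of the library labelled BAT surgery, with exact 95% intervals; each panel has its own y axis from 0. Car2 stands at 94.6 and 66.7 in clusters 34 and 21 and at most at 18.3 elsewhere, while Car12 stands at 157 in basal-like cluster 26.

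Across 34 sums by class and library, the genes most like each member by Pearson correlation of log2(CPM + 1) were listed as a description. The sums share libraries, depth and free RNA. Car3 lay closest to Cidec (0.98), Retn, Adrb3 and Adipoq, all fat cell genes, and Car5b to Cdo1 (0.91), Bnip3 and Acad11. Car4 lay closest to the endothelial gene Myct1 (0.93), Depp1 and Aqp1. The best matches of Car12 (Lrrc6, 0.84), Car13 (Gm14443, 0.78), Car8 (A930012L18Rik, 0.78) and Car2 (Gm43581, 0.75) were lower, and Car9 had too few UMIs.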

How the data were processed

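The authors' deposited UMI count tables of nuclear RNA were used. Per the labels' protocols, tissue was minced and digested and a suspension with viability checked went into a SeekGene library preparation. Per the submitters' processing notes the build was mm10 and Seurat 4.4.0 and 4 was used, with no role given, and no aligner or counting program is named in these sources.

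Nuclei with at least 500 UMIs, 300 genes and under 10% mitochondrial UMIs were kept, which removed 70 of 36760 barcodes. Scrublet scores (scanpy 1.11.5) removed 2652 doublets, by the automatic threshold in the surgery libraries and by the highest 6% of scores in the sham libraries. All libraries were clustered without integration (2000 variable genes, 30 components, 15 neighbours, Leiden resolution 1). A cluster was named "-like" where at least 3 markers were 2-fold over the median cluster with a mean fold of 4, and stayed unnamed where a rival class reached 60% of its score. These limits were set with the clusters in view, and erythroid markers were not allowed as a rival.

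UMIs were summed per class and library and divided by the class total (CPM, per 1000000 UMIs). Levels carry exact Poisson intervals, shares exact binomial (Clopper-Pearson) ones, and ratios exact conditional binomial ones, which recovered the ratios set in simulated counts. That recovery does not show that the intervals are wide enough where UMIs gather in a few nuclei. A level of 0 was bounded at 3 counts. Gene spans came from GENCODE M21, which held 32235 gene identifiers. Immediate early genes were binned at 1000 and 3000 CPM of a nucleus. The text names all 16 family genes, up to 4 genes with the most UMIs of each list and its called genes, and genes that lead a cluster. A gene that this rule names is not reported here. The genes and lists were chosen with earlier results of these data known.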

Additional observations from a re-analysis of the deposited data

How the results depend on the processing

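No paired analysis was possible because each group has 1 library. The Car2 ratio of BeAT surgery to BeAT sham was 15.2 and stayed above 1 under every alternative run. It was 9.71 with nuclei thinned to 1000 UMIs (11 and 11 UMIs, too few for a call), 23.3 with a gate on marker genes in place of clusters, 23.1 with BAT sham in place of BeAT sham, 6.68 in cluster 1 alone, 95.2 in cluster 11 alone and 7.45 by share of nuclei, the last 3 chosen after seeing the data. The Car2 ratio of BeAT sham to BAT sham was 1.52, and 3.15 (0.832 to 17.6) when thinned. Car2 thinned to 1000 UMIs gave no value in the other pairs, where BAT surgery kept 0. Of the other genes, the count called lower in each surgery pair was 1 and became 0 with the span trend taken off, since Car3 lost its call, and in the BeAT pair it became 2 with no minimum of UMIs. With the gate, 1 gene was called higher and 1 lower between BeAT surgery and BAT surgery, against 0 and 0. The gate also took the Car5b call from the BAT pair. Of 84 ratios of single genes recomputed, 56 moved by less than their counting interval, 28 moved and 0 called ratios reversed, and of 48 levels 45 kept within their interval. The cause of these shifts was not tested. Few UMIs limit Car2, Car4, Car8, Car9 and Car12 in adipocyte-like nuclei, and counting intervals are too narrow where UMIs gather in a few nuclei.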

Other observations

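Carbonic anhydrase genes outside the chosen 8 were also found in other groups of nuclei. Car10, a related protein without enzyme activity that is known from the nervous system, had 290 UMIs in 176 nuclei of BeAT sham in an unnamed cluster led by the neuronal genes Syt1 and Snap25 (699.6 CPM, 621 to 785). In Schwann-like nuclei it had 24 UMIs in BeAT sham (182 CPM) and 22 in BAT sham (68.5). Car14 had 42 UMIs in an unnamed cluster of 778 nuclei of BAT surgery (16.7 CPM, 4.50% of nuclei). Its level was 28.0 CPM in Schwann-like nuclei of BAT sham, on 9 UMIs in 89 nuclei.

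In T or NK-like nuclei of BeAT surgery the Car2 UMIs also gathered in few nuclei, with 29 UMIs in 12 of 1631 nuclei, 15 of them in 1 nucleus.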
